A study of Arabidopsis thaliana with 4 samples.

Results

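The genes described here encode 10 proteins that protect Arabidopsis cells against cold and water loss: KIN1, KIN2, COR15A, COR15B, COR47, ERD10, RAB18, COR78 (listed as LTI78 in the reference annotation and also known as RD29A), LTI30 and RD22. They were chosen by locus identifier, and all 10 were found among the 32678 loci of the count table. RNA was sequenced from 4 untreated rosette cores, called core 1 to core 4, of the accession Col-0. Each core was the central 1.5 to 2 cm of the rosette of 31-day-old plants, which includes the apex and the base of young leaves. Seeds on soil had 1 to 2 days at 4 °C, and plants then grew at 22 °C in 16-h days under 100 µE per m2 and s. All libraries belong to 1 group with no cold, drought or hormone treatment, so the data give the resting level of these genes and how far it varied between cores. The labels do not say whether the cores came from separate plants, so p-values here reflect only how these samples differ, and that may be technical spread.

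In background, most of these genes are switched on by cold through CBF transcription factors, which bind the C-repeat or dehydration responsive element (CRT/DRE), and by drought through abscisic acid, whose bZIP factors of the ABF and ABI5 type bind the abscisic acid responsive element (ABRE). COR15A and COR15B act in the chloroplast stroma on inner envelope membranes. COR47, ERD10, RAB18 and LTI30 are dehydrins, which bind membranes and other proteins in drying cells. KIN1 and KIN2 resemble late embryogenesis abundant proteins, COR78 is the classic reporter of cold and drought signalling, and RD22 is a BURP-domain protein induced by dehydration and abscisic acid through MYC2 and MYB2.

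The CRT/DRE core matches before the start codons are shown first, because this is the element that CBF factors bind. The core was searched as CCGAC on both strands of the TAIR10.1 reference, with overlapping matches of the motif joined. The 500 bases before the start codon, a window chosen after the data were seen, held at least 1 match in 9 of the 10 genes, against 23.4% of 27443 protein-coding genes. RD22 was the gene without one. In KIN1, KIN2, COR15B, COR47, ERD10 and RAB18 every match lay after the annotated gene start, inside annotated exon and not upstream of the transcript. In COR15B, COR47 and ERD10 that start lies 560, 1209 and 499 bases before the start codon. The 500 bases thus held almost no upstream sequence of these genes, which fixed this outcome for them. In the window of the planned search, from 250 bases before to 50 after the annotated gene start, 3 of 10 held a match, against 15% of all genes. Each line gives a match in capitals with 8 bases on either side, 5′ to 3′ along the gene, and GTCGG is the same core on the opposite strand.
KIN2 (chr5:5211773-5211793, plus strand): aaaagctaCCGACataaggca
KIN1 (chr5:5209806-5209826, plus strand): aatagctaCCGACataaggca
COR15A, far site (chr2:17712397-17712417, minus strand): cttgttggCCGACatacattt
COR15A, near site (chr2:17712220-17712240, minus strand): tttcatggCCGACctgctttt
COR15B (chr2:17710126-17710146, minus strand): cttgatggCCGACctcttttt
COR47 (chr1:7085920-7085940, minus strand): ttcatctaCCGACttcaagaa
ERD10 (chr1:7089365-7089393, minus strand): ttcatccaCCGACCGACCGACgtaaaaga
RAB18 (chr5:26519347-26519367, minus strand): acaccacgCCGACattttctg
COR78, farthest site (chr5:21240569-21240589, plus strand): gacatggaCCGACtactaata
COR78, next site (chr5:21240619-21240639, plus strand): atatcataCCGACatcagttt
COR78, next site (chr5:21240676-21240696, plus strand): atatactaCCGACatgagttc
COR78, nearest site (chr5:21240713-21240733, plus strand): agatcaagCCGACacagacac
LTI30, farthest site (chr3:18940534-18940554, plus strand): aaaattacGTCGGtcgctaac
LTI30, middle site (chr3:18940557-18940577, plus strand): ctactacaCCGACgtcttact
LTI30, nearest site (chr3:18940626-18940646, plus strand): tttacgatGTCGGccaacacg

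The sites of KIN2 and KIN1 differed at 1 of 21 bases, and the 500 bases before the start codons of this pair were 82.9% identical over 520 aligned positions. COR78 held 4 separate sites and LTI30 held 3. Of the COR78 sites, 3 lie whole within the 250 bases before its annotated start (chr5:21240467-21240716, plus strand), which are shown in full with every CRT/DRE and ABRE core in capitals because this is the textbook arrangement of the element.
COR78 upstream: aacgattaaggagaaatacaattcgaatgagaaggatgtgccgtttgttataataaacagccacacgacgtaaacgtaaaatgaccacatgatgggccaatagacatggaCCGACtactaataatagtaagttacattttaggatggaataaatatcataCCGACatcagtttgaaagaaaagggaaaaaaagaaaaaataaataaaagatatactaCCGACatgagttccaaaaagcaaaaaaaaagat

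The ABRE core, searched as ACGTG on both strands, was present in the same 500 bases of 9 of the 10 genes, against 34.9% of all protein-coding genes, and ERD10 was the gene without one. In the window around the annotated gene start, 6 of 10 genes held it, against 26.7% of all. In COR15B, COR47, COR78 and LTI30 every ABRE core found lay at or after the annotated gene start. For COR15B and COR47 this was fixed in advance, because their 500 bases lie wholly after that start. RD22 thus had ABRE cores but no CRT/DRE core in these windows, and ERD10 the reverse in the 500 bases. A match is a description of these letters and not evidence of binding. KIN2 had 1 more ABRE site than KIN1, and these are the 4 sites of KIN2 and the 3 of KIN1, with the core in capitals; a palindromic core carries 1 more capital because it matches on both strands.
KIN2, farthest (chr5:5211519-5211539, plus strand): aacaacccCACGTtacatatt
KIN2, next (chr5:5211740-5211761, plus strand): taaaacgaCACGTGatgtcttg
KIN2, next (chr5:5211813-5211834, plus strand): acgtaatcCACGTGgtttcaga
KIN2, nearest (chr5:5211830-5211851, plus strand): tcagattaCACGTGgcaccaca
KIN1, farthest (chr5:5209559-5209579, plus strand): aacaaaccCACGTtacataat
KIN1, next (chr5:5209773-5209794, plus strand): taaaacgaCACGTGaagtcttg
KIN1, nearest (chr5:5209846-5209867, plus strand): atgtaatcCACGTGgttttaga

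**Figure D1:**
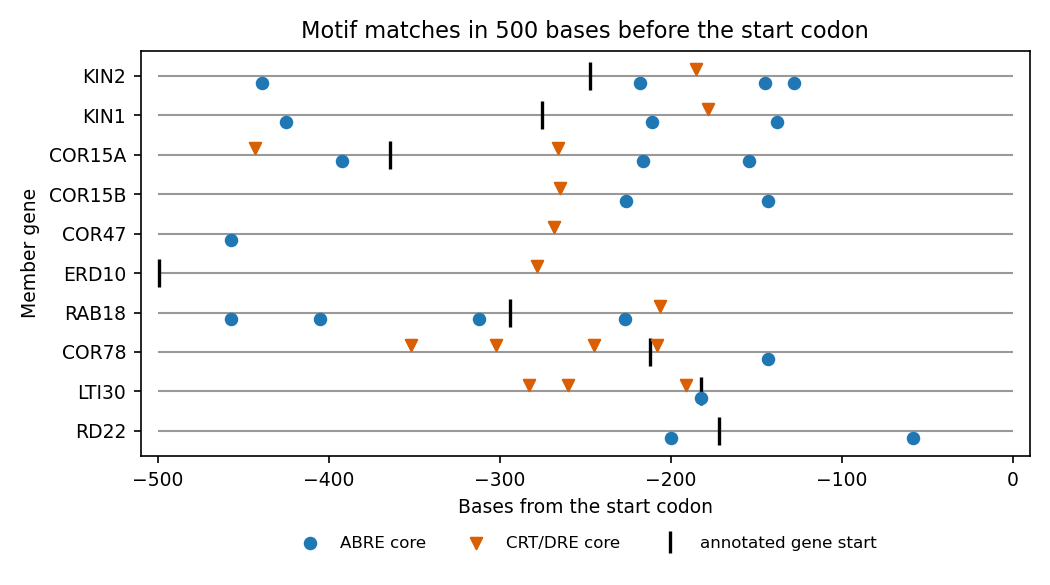
Positions of CRT/DRE core matches (triangles) and ABRE core matches (circles) in the 500 bases before the start codon of each of the 10 genes, with distance from the start codon in bases on the x axis and the annotated gene start as a vertical bar where it falls inside the window. KIN2 and KIN1 each carry 1 CRT/DRE core, with 4 ABRE sites in KIN2 and 3 in KIN1, COR78 carries 4 CRT/DRE cores and LTI30 3, and RD22 carries none.

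Of the 10 genes, 7 have 1 transcript model in the count table and could be measured. The table counts each TAIR10 model separately. The median of the mean count was 55.5 for protein-coding loci with 1 model, but 0.5 for those with 2 and 0.25 for those with 3 or more, so a low value of a locus with several models is not a measure of its expression. ERD10 and RAB18, with 2 models each, are listed at 0 in every core. COR15A has 3 models, of which the second had 15, 17, 8 and 12 counts in cores 1 to 4 and the others none. These 3 genes are given no level. The measured 7 were scaled to CPM, counts per 1e6 counts of nuclear loci with 1 model, on libraries of 5639486 to 7692788 counts in all, in which a count of 0 allows up to 3 counts, or 0.419 to 0.565 CPM. That limit covers counting error only.

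Markers of the labelled tissue were present. STM, the homeobox gene that maintains the shoot meristem, had 194, 317, 95.7 and 162 CPM in cores 1 to 4, PDF1, an epidermal gene of the apex, 683 to 1141 CPM, the light-harvesting gene LHCB1.3 (CAB1 in the reference) 19449 to 28529 CPM and the mitotic cyclin CYCB1;1 25.8 to 35.2 CPM. Of root hair genes, EXPA7 had no count and RHD6 had 1 count over the 4 cores, and the pollen genes VGD1 and GEX2 at most 0.298 CPM. Late embryogenesis abundant genes are strongest in seeds, so 5 seed maturation genes with 1 model were read too. OLEO2, SESA4 and GEA6 (EM6) had no counts, EM1 had 0, 0.447, 0 and 0.565 CPM and OLEO1 0.699, 2.68, 0.306 and 1.13 CPM, and their summed level was 0.306 to 3.13 CPM, against 1063 to 2423 CPM for the 7 protective genes. Organelle loci took 2.94, 3.09, 5.15 and 3.57% of the counts of loci with 1 model in cores 1 to 4.

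KIN2 (AT5G15970, TAIR10.1, chromosome 5, 5211719 to 5212743, plus strand) had the highest mean CPM of the 7, and the highest level per kb in every core. It had 1354, 1367, 316 and 372 CPM in cores 1 to 4. Cores 1 and 2 were thus alike and stood above cores 3 and 4, with the highest core 4.33 times the lowest. KIN2 ranked 113th by mean CPM among 26516 nuclear loci with 1 model. It gave 61.1, 56.4, 26.7 and 35.0% of the summed CPM of the 7 genes, which was 2217, 2423, 1182 and 1063 CPM in cores 1 to 4. Without KIN2 the sum of the other 6 was 862, 1056, 866 and 691 CPM, so most of the difference between cores in the sum lay in this 1 gene. In bulk tissue, fewer cells that express a gene and less RNA per cell cannot be told apart.

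KIN1 (AT5G15960, chromosome 5, 5209717 to 5210826, plus strand) lies 892 bases before KIN2 on the same strand, yet it was the lowest of the 7. It had 40, 45, 8 and 12 counts, or 5.59, 6.70, 1.23 and 2.26 CPM, in cores 1 to 4. Cores 1 and 2 were again above cores 3 and 4. Per kb of exon, KIN2 exceeded KIN1 by 8.05, 7.80, 8.07 and 7.45 on the log2 scale, a mean of 7.84 ± 0.29 (SD, n = 4), or 229-fold. KIN2 was higher in 4 of 4 cores, and the exact two-sided sign-flip permutation test over the cores gave p = 0.125, the smallest that 4 cores allow. The ratio varied far less between cores than either gene, whose log2 CPM had SDs of 1.15 (KIN2) and 1.15 (KIN1). The coding sequences of the pair are each 201 bases long and 95% identical, with 191 of 201 positions the same. Their longest shared run over the exons was 58 bases, and no stretch of 100 bases of one was found in the other. How shorter or ambiguous reads were assigned is not given in the sources used here, so the split between the pair is uncertain in size. KIN1 counts may hold reads of KIN2, so the likeness of their values over cores is uncertain too.

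RD22 (AT5G25610, chromosome 5, 8914122 to 8916856, minus strand), the BURP-domain gene, had the second highest mean CPM. It had 400, 561, 503 and 398 CPM in cores 1 to 4, which was below KIN2 in cores 1 and 2 and above it in cores 3 and 4. Cores 2 and 3 were high and cores 1 and 4 low, so RD22 did not share the pattern of KIN2. Its highest core was 1.41 times its lowest, near the median of 1.45 over all 12771 loci tested.

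Among the dehydrins, COR47 (AT1G20440, chromosome 1, 7084409 to 7086873, minus strand) had 254, 290, 216 and 166 CPM in cores 1 to 4. LTI30 (AT3G50970, chromosome 3, 18940643 to 18941611, plus strand), a dehydrin rich in lysine segments, had 14.5, 11.6, 6.58 and 6.59 CPM. In both genes cores 1 and 2 lay above cores 3 and 4, by little for COR47 and by more for LTI30, whose highest core was 2.21 times its lowest.

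COR78 (AT5G52310, chromosome 5, 21240717 to 21243644, plus strand) had 157, 162, 116 and 91.2 CPM in cores 1 to 4. It showed the same order as COR47, with core 2 highest and core 4 lowest. COR15B (AT2G42530, chromosome 2, 17708593 to 17710433, minus strand), the stromal protein gene, had 31.0, 24.1, 23.3 and 26.4 CPM. It was the most even of the 7, with its highest core 1.33 times its lowest. Its annotated exons lie under exons of the opposite strand along 29.5% of their length and its locus ends 7 bases from that of COR15A, with a coding identity of 82.6% between the pair, so its counts may hold reads of neighbours.

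Per kb of exon, the order of the mean levels was KIN2 (1137 ± 783 CPM per kb; SD, n = 4), RD22 (269.5 ± 46.4), COR47 (99.9 ± 22.9), COR78 (49.5 ± 12.8), COR15B (16.5 ± 2.196), LTI30 (10.1 ± 4.06) and KIN1 (4.76 ± 3.16). Each was above the next in 4 of 4 cores. The ranges over cores did not overlap between neighbours from KIN2 down to COR15B, but they did between COR15B and LTI30 and between LTI30 and KIN1. The annotated exons include long stretches before the start codon, 1209 bases in COR47 and 560 in COR15B, which lower their level per kb. Per kb of coding sequence, a scale added after the data were seen, COR15B (61.5 ± 8.17 CPM per coding kb) drew level with COR78 (61.7 ± 16.0) and KIN1 (19.6 ± 13.02) with LTI30 (16.9 ± 6.75), each pair split 2 cores against 2. RD22 (395 ± 68.0) stayed above COR47 (290.3 ± 66.5) in 4 of 4 cores, with overlapping ranges, and KIN2 stayed highest at 4241 ± 2923.

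**Figure D2:**
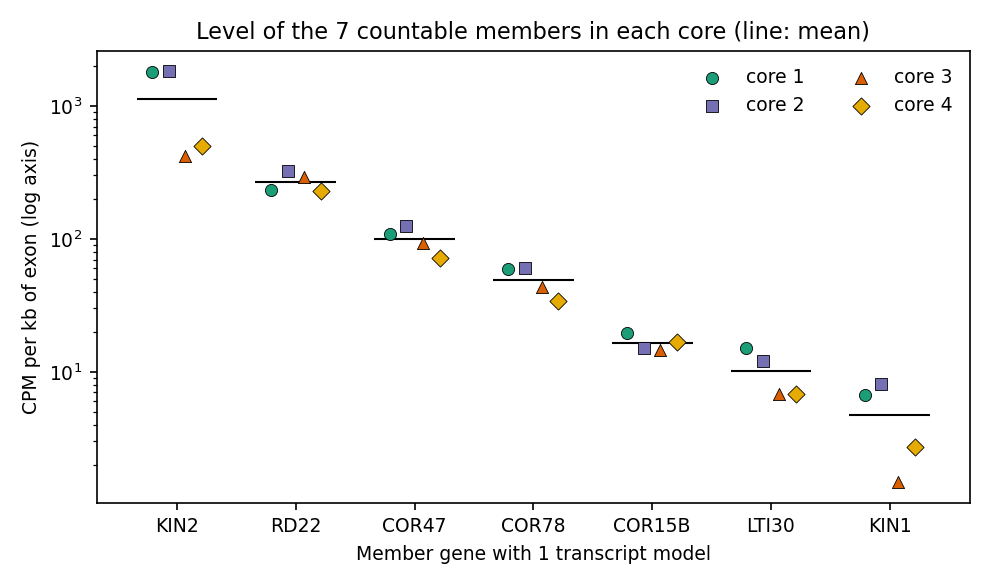
CPM per kb of exon (log axis) of the 7 genes with 1 transcript model, with 1 symbol for each core and a line at the mean. KIN2 spans 421 to 1823 CPM per kb and lies above all others in every core, and KIN1 lies lowest at 1.48 to 8.08.

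Of these 7, 6 had enough counts in all cores to be tested for variation, and KIN1, with 8 counts in core 3, did not pass that filter. All 6 varied between cores by more than counting noise (heterogeneity chi-square on the counts with edgeR's TMM library sizes, Benjamini-Hochberg adjusted p under 0.05 over 12771 loci). The same held for 64.2% of all loci tested, so such a call is common here. For KIN2 the chi-square statistic was 7461 and the p-value too small to be represented. For COR15B it was 9.59, with an adjusted p of 0.0364 by the same test with edgeR scaling, and this call was lost when library totals were used (0.0992), without the filter (0.0715), without core 1 (0.620) and without core 3 (0.0777).

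None of the 6 was called when set against loci of the same level. edgeR's quasi-likelihood fit compared each gene's dispersion with the trend over level, and it called none of the 6 and 0% of the 12771 loci after adjustment. On simulated counts with the common dispersion of these libraries, the test recovered 0% of 1.5-fold, 14% of 2-fold and 96% of 4-fold differences. Every simulated locus had that same dispersion, so these shares may not carry over to the data. In the data, KIN2 was not called with its highest core 4.33 times its lowest. This test could thus miss most differences of 2-fold or less, and larger ones too. At an unadjusted p under 0.05 it took 1 of the 6, KIN2, and 5.30% of all loci. The quasi-dispersion of KIN2 was 23.6 times the trend (adjusted p = 0.741 by edgeR), which placed it 57th of the 12771 loci, and 1.46% of loci had a ratio of highest to lowest core at least as large as its 4.33. For COR78, LTI30 and COR47 the quasi-dispersion was 3.42, 3.27 and 2.62 times the trend, and for RD22 and COR15B 1.28 and 0.635 times. These values moved when 1 core was left out. That of KIN2 was 21.5, 40.4, 16.6 and 19.95 without core 1, 2, 3 and 4 in turn, above the trend each time. Several other values rested on 1 core. Without core 4 those of COR47 and COR78 were 0.854 and 1.32, and without core 1 those of LTI30 and COR15B were 1.80 and 0.135. No gene was called by the quasi-likelihood test in any of these fits.

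The highest core was at least 2-fold the lowest in 2 of the 6 genes, KIN2 and LTI30, against 15.7% of all loci tested. The median ratio was 1.76 over the 6 genes and 1.45 over all loci. In 4 of the 6 (KIN2, COR47, COR78 and LTI30) both cores 1 and 2 were higher than both cores 3 and 4, against 28.9% of all loci. None of the 6 showed the opposite split, against 27.2% of all loci. This split was not a planned comparison. The sample titles number cores 1 and 2 lower than cores 3 and 4, and the labels do not say what these numbers stand for. Any part of that numbering in the split was not tested. The split is the pattern of KIN2, which is itself counted here, so these shares are a description only. KIN1, not among those tested, also had cores 1 and 2 higher. The organelle share was lower in cores 1 and 2 than in cores 3 and 4, as given above. Of the 4 shoot apex and leaf markers, STM had cores 1 and 2 above cores 3 and 4, with a quasi-dispersion 11.4 times the trend, CYCB1;1 had them below, and PDF1 and LHCB1.3 showed neither. The summed level of these markers was 29895, 20475, 26853 and 21271 CPM in cores 1 to 4. Most of it was LHCB1.3, with 28529, 19449, 25652 and 19981 CPM, so the sum says little about STM or CYCB1;1. The part of the organelle share and of the apex content of the cores in this pattern was not tested.

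**Figure D3:**
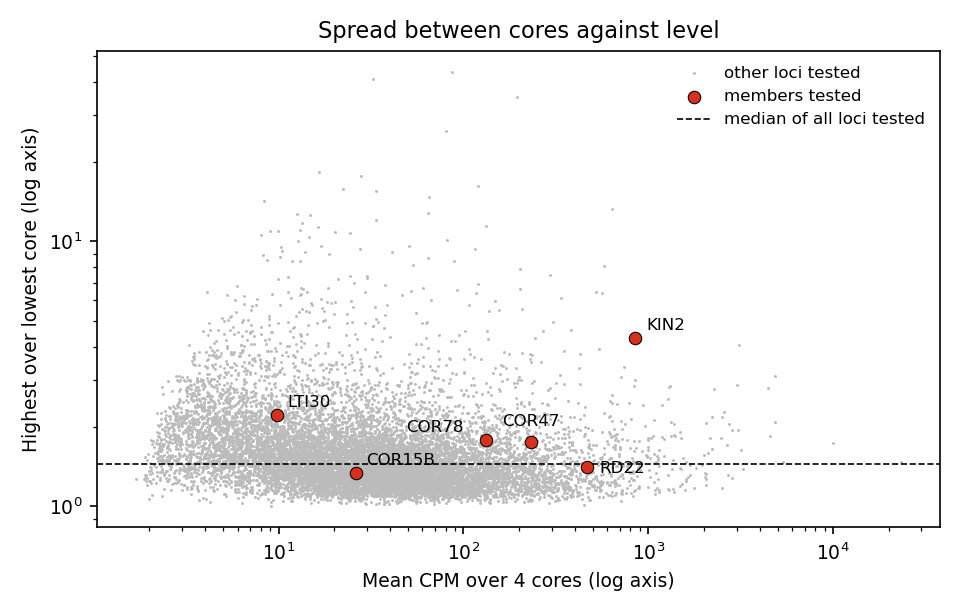
Ratio of the highest to the lowest core (log axis) against mean CPM (log axis) for all 12771 loci tested (grey), with the 6 tested genes in red and the median of 1.45 as a dashed line. KIN2 lies at 4.33 among genes of its abundance, LTI30 at 2.21, and COR15B and RD22 lie just below the line.

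Across all loci tested, the profile most like that of KIN2 was measured as the root mean square difference of log2 CPM over the 4 cores after centring each gene. It was smallest for AT4G21930 (0.141 on the log2 scale), ABI5 (0.160), AT2G03200 (0.175), AT3G45160 (0.177) and AT3G57540 (0.179). ABI5, a bZIP factor of abscisic acid signalling, had 17.6, 18.3, 3.98 and 6.22 CPM in cores 1 to 4. AT3G45160 was the abundant one, with 504, 707, 153 and 168 CPM. AT2G03200, annotated as an aspartyl protease family protein, had 6.57, 7.45, 1.99 and 2.45 CPM. AT3G57540, annotated as a remorin family protein, had 15.2, 19.8, 4.90 and 5.46 CPM. Exons of AT4G21930 (23.4, 26.8, 7.04 and 7.91 CPM) lie under the opposite strand along 31.3% of their length. Of the other genes of the set, KIN1 was nearest to KIN2 at 0.252, closer than all but 28 of the loci tested, then LTI30 at 0.525, COR78 at 0.708, COR47 at 0.770, COR15B at 0.933 and RD22 at 0.988. KIN1 had only 8 to 45 counts, and its coding sequence is 95% identical to that of KIN2. Its counts may hold reads of KIN2, which was not tested. With 4 libraries from 1 group, such likeness is a description of these cores.

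**Figure D4:**
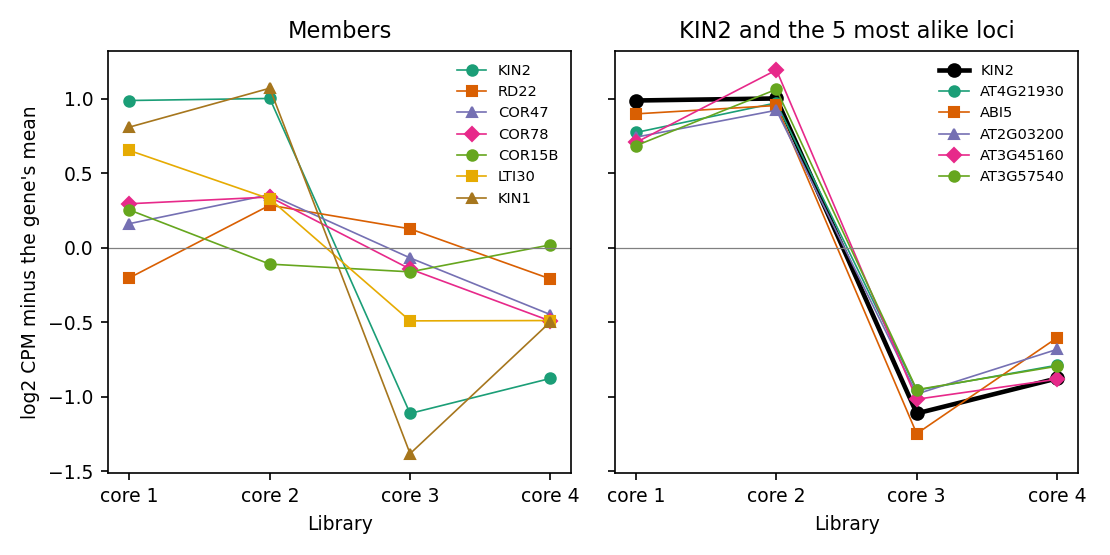
Log2 CPM minus the gene's own mean in each core, for the 7 genes (left) and for KIN2 with the 5 loci of most alike profile (right); lines join values of 1 gene and imply no order of cores. KIN2 and KIN1 swing most, LTI30, COR78 and COR47 less in the same direction, and RD22 and COR15B differ from them.

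Some other protective and osmolyte genes were abundant too, while others had few counts. Of 26 listed, 17 had 1 model and 12 were tested, of which 11 varied between cores beyond counting noise, against the same 64.2% of all loci. By the same unplanned split, cores 1 and 2 were both higher in 9 of the 12, against 28.9% of all loci, and both lower in 1, against 27.2%. The median ratio of highest to lowest core was 1.71, against 1.45 over all loci. The highest per kb were RCI2A, a small membrane protein gene (892, 733, 666 and 534 CPM), and the dehydrin gene HIRD11, AT1G54410 (963, 1176, 667 and 749 CPM). Both had fewer CPM than KIN2 in cores 1 and 2 and more in cores 3 and 4. USPL1, a BURP-domain relative of RD22, had 42.2, 45.6, 6.13 and 26.6 CPM, a 7.44-fold range with a quasi-dispersion 23.6 times the trend, not past edgeR's threshold after adjustment. GolS2, a galactinol synthase gene of raffinose synthesis, had 26.3, 43.2, 22.4 and 21.1 CPM, and its relative GolS3 2.38, 2.23, 0.613 and 1.70 CPM. AT5G38760, annotated as a late embryogenesis abundant family protein, had 1 count in all.

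CBF1, CBF2 and CBF4 were at or near the counting limit in these cores, and CBF3 was low but above it. CBF1 had 6, 2, 1 and 2 counts in cores 1 to 4, CBF2 1, 2, 0 and 2, and CBF4 none. CBF3 (DREB1A in the reference) had 17, 15, 4 and 8 counts, or 2.38, 2.23, 0.613 and 1.51 CPM, with cores 1 and 2 higher as in KIN2. Of 18 listed regulators of the cold pathway, 9 had 1 model and 3 were tested, of which 2 varied beyond counting noise, a share near the 64.2% of all loci. SCRM2, a bHLH activator of CBF genes, had 42.5, 26.5, 61.4 and 48.4 CPM, and HOS1, a ubiquitin ligase that restrains the pathway, had 35.8, 39.0, 59.3 and 46.9 CPM, so both had cores 3 and 4 above cores 1 and 2. DREB2B had 5.59, 4.47, 2.91 and 3.01 CPM (adjusted p = 0.0712 by chi-square with edgeR scaling), with 69.5% of its exons under the opposite strand.

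Of 16 listed abscisic acid genes, 7 had 1 model and 4 were tested. All 4 varied beyond counting noise, against 64.2% of all loci. By the same unplanned split, all 4 had cores 1 and 2 both higher, against 28.9%. ABI1, a phosphatase that inhibits the pathway, had 120, 128, 100.4 and 107 CPM, and SNRK2.3, a kinase of the pathway, 60.9, 56.0, 48.7 and 44.3 CPM. ABI5, given above, had a 4.60-fold range and a quasi-dispersion 11.6 times the trend, not past edgeR's threshold after adjustment. MYC2, which acts on RD22, had 101, 92.3, 80.5 and 61.0 CPM, but 98.5% of its exons lie under the opposite strand. Its partner MYB2 had 0.447 to 0.699 CPM and ABI3 0.280 to 0.893 CPM. In NCED3, LEA4-5 and CBF3, but not CBF1, cores 1 and 2 were above cores 3 and 4. NCED3, whose enzyme limits abscisic acid synthesis, was outside the tested loci with 45, 90, 8 and 13 counts (6.29, 13.4, 1.23 and 2.45 CPM); it was singled out after its values were seen, as were LEA4-5, with 18.2, 23.2, 0.459 and 4.33 CPM, and CBF1 and CBF3. ZAT10 and ZAT12, also untested and named after their values were seen, did not share that order. The zinc finger gene ZAT10 (STZ in the reference) had 1.54, 1.79, 3.06 and 2.45 CPM in cores 1 to 4, and ZAT12 (RHL41) had 2.38, 1.49, 0.613 and 3.01 CPM.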

How the data were processed

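Total RNA of 4 rosette cores was depleted of ribosomal RNA and made into strand-specific Ion Torrent libraries, per the labels' protocols. The same protocols name Torrent Suite 4.0.2, and the submitters' processing notes name HTSeq and the build TAIR10. For the aligner and how reads were assigned, settings were not given in the sources used here. Raw counts were deposited by the authors with a row for each TAIR10 transcript model, not normalized.

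Models were summed per locus (40745 rows, 32678 loci), and levels were taken from the 26516 nuclear loci with 1 model. CPM used TMM scaling (edgeR 4.0.16, R 4.3.3). The filter of edgeR (minimum count 10, 1 group) left 12771 loci. Variation was tested by chi-square heterogeneity and by an intercept-only quasi-likelihood fit in edgeR, one-sided, each with Benjamini-Hochberg adjustment (threshold 0.05). Both tests were tested on simulated data. With counting noise only, the chi-square test made 4 false calls among 12771 loci, and with the common dispersion of these libraries 9258. The quasi-likelihood test made 2 and 4. The KIN ratio used a prior count of 0.5. Coordinates, exon lengths and sequences come from the RefSeq annotation of TAIR10.1, whose exons may differ from the TAIR10 models counted. No table of protein sequences was used here.

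The members, lists and tests were chosen with earlier results of these data known. All members are named; of each other list, the 2 highest and 2 lowest per kb and the 2 tested genes of widest range; and the 5 loci most like the member of widest range, which was also the highest per kb. Alternatives were DESeq2 1.42.0 size factors, library totals, no filter, summed models, a fit that was not robust, other prior counts and lengths, and leaving out each core.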

Additional observations from a re-analysis of the deposited data

Results flagged for a closer look

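Of 38 sets of 4 values checked, 3 had 1 core far from the others, and chance gives about 1 in 20. That rate is only a rough guide. Sets with no count in any core, such as CBF4, cannot be flagged, and sets with a single read always are. The epidermal gene PDF1 had 683 CPM in core 2, against 1070 to 1141 CPM in the others, a gap of 0.845 of the whole range, past Dixon's limit for 4 samples. AT5G38760 and RHD6 each had 1 count in 1 core and none elsewhere, a gap of 1 times the range that rests on a single read. None of the 7 protective genes, their sum or the ratio of KIN2 over KIN1 had such a core.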

How the results depend on the processing

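Of 164 recomputed values, 158 were taken as unchanged. They kept their side of the threshold or moved by no more than 1 SD between cores. Counts of genes or loci called were judged instead by their fold change from the main count. The exceptions were the COR15B call, lost in 4 alternatives as given above, and KIN1, which was called where it became testable, without the filter (adjusted p = 3.052e-06 by chi-square with edgeR scaling) and without core 3 (0.00643). The number of genes called was 5 or 6 in every alternative, 5 to 6 when 1 core was left out. The count of all loci called by chi-square was 8200, and 6468 (without core 3) to 8482 (without the filter) over its alternatives. The log2 ratio of KIN2 over KIN1 was 7.70 to 7.97 over its alternatives, and the mean summed CPM 1471 to 1945 without 1 core. The number of all loci past the quasi-likelihood threshold was 0 with the filter and 431 of 22869 without it. No paired analysis was possible because all libraries belong to 1 group. Depth limits KIN1, the CBF genes and the seed genes, whose counts were few.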
